A study of Mus musculus with 2 samples.

Results

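The cells described here are S-biased cycling T cells of the mouse spleen, T cells whose transcripts were weighted toward the genes of DNA replication. For each cell an S score was formed by adding the unique molecular identifiers (UMIs, tags that count single captured transcripts) of 10 genes used in S phase, Pclaf, Rrm2, Tyms, Tk1, Mcm3, Mcm5, Mcm6, Pcna, Gins2 and Dut. An M score was formed in the same way from 10 genes used in G2 phase and mitosis, Birc5, Ube2c, Nusap1, Cenpf, Ccnb1, Ccnb2, Cdk1, Top2a, Tpx2 and Hmmr. A T cell was called S-biased when its S score was at least 6 and above its M score. By this rule 626 cells were S-biased among 26620 cells in all, 471 in the library of LatY136F mice and 155 in the library of LatY136F CD45-KO mice, called CD45-KO below.

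Both genotypes carried the Y136F mutation of LAT, the membrane adaptor that passes T cell receptor signals on, so that no wild-type cells served as a reference. The mutation removes the docking site for phospholipase C gamma, and such mice are known for a lymphoproliferation of CD4+ T helper 2-type cells. The second genotype also lacked CD45, the product of Ptprc, a phosphatase of the cell surface that controls the kinases Lck and Fyn. The mice were 8 to 9 weeks old, spleen cells were sorted for CD3 and CD5, and 1 library per genotype was made on the BD Rhapsody system. The staining mix held a CD4 antibody, but the labels do not say that cells were gated on it, and they give no number of mice per library. Since each genotype has a single library, nothing below was checked against replicates and there are no p-values. The 95% intervals are exact and cover only counting error.

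In S phase a cell copies its DNA. Helicase complexes of Mcm proteins, loaded at origins in G1, open the double strand, polymerases follow with the sliding clamp Pcna, and enzymes such as ribonucleotide reductase and thymidylate synthase supply the nucleotides. Most of these genes are switched on together at the end of G1 by E2F transcription factors, once cyclin-dependent kinases have inactivated the retinoblastoma protein. In T cells this step follows antigen receptor and cytokine signals, and resting T cells keep it shut with factors of quiescence such as Klf2, Btg1 and Btg2.

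Filters of at least 200 genes and at most 25% mitochondrial UMIs removed 28 LatY136F and 11 CD45-KO cells. At least 1 UMI of Trac, Cd3e or Cd3g was then required, which left 13640 and 12645 T cells. The files held 35300371 and 29268453 UMIs. The median T cell that was not S-biased had 2128 UMIs in LatY136F and 1989 in CD45-KO, whereas the median S-biased cell had 5629 (range 863 to 28130) and 5826 (range 1622 to 23265). S-biased cells were thus far deeper than other T cells in both libraries and close to each other between libraries. The libraries shared 223 cell barcodes, and 1 of these belonged to an S-biased cell in both.

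The rule genes themselves describe the choice of cells and are no finding. Pclaf, which binds the clamp during replication, stood at 923 UMIs per 1000000 UMIs of the class (CPM) in S-biased LatY136F cells against 110 in the other T cells, and at 772 against 38.6 CPM in CD45-KO. Pcna reached 925 and 768 CPM and had a UMI in 94.5% and 95.5% of the S-biased cells. Rrm2, a subunit of ribonucleotide reductase, was at 435 and 291 CPM, Tyms, thymidylate synthase, at 221 and 166 CPM, and Tk1, thymidine kinase, at 151 and 83.8 CPM. All 5 marker genes were thus present, and all 5 had a lower CPM in the CD45-KO cells. Pclaf supplied 21.5% of the S score UMIs in each library.

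Near the threshold, the 30 LatY136F and 22 CD45-KO cells with an S score of exactly 6 had a UMI of Mki67, a proliferation gene outside the rule, in 26.7% and 18.2% of cases. The 97 and 66 cells just outside, with an S score of 5 above their M score, had it in 21.6% and 15.2%. Over all members the shares were 73.7% and 61.9%. The median S score was 21 in LatY136F and 15 in CD45-KO, and 12.1% and 20.6% of members lay at a score of 6 or 7. The members were therefore a range along a score rather than a separate group, and the CD45-KO members lay closer to its lower edge.

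**Figure D1:**
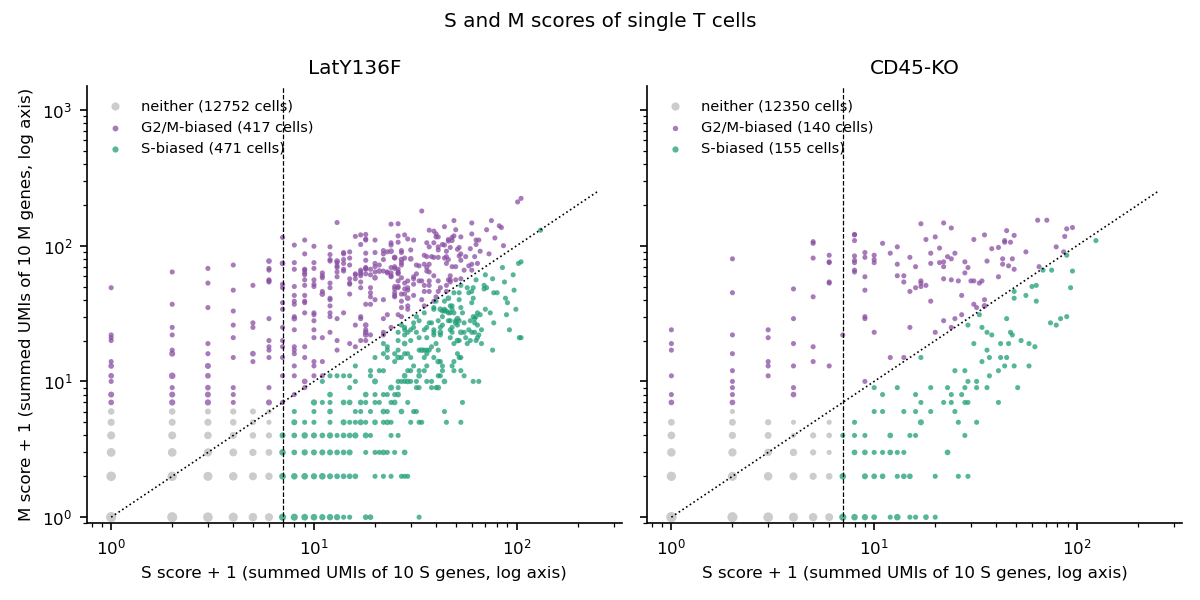
S score against M score of single T cells in the LatY136F and CD45-KO libraries, each as summed UMIs plus 1 on log axes, with larger points for more cells at the same scores. Green points right of the dashed line (S score of 6) and below the dotted diagonal (S equal to M) are the 471 and 155 S-biased cells, purple points are the 417 and 140 G2/M-biased cells, and grey points are T cells of neither kind.

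Promoters of 4 rule genes are shown because they carry a short E2F motif, the sequence through which this gene group is classically switched on. Windows from 250 bases before to 50 bases after each RefSeq start (GRCm38.p6) were searched on both strands for TTTGGCGC, TTTCCCGC, TTTCGCGC and TTTGCCGC, some of which can overlap in a promoter. Capitals mark the matches, each sequence runs 5′ to 3′ along its gene, and the stretch printed ends 30 bases after the start. Pclaf lies on the plus strand at chr9:65890073-65890352, Mcm3 on the minus strand at chr1:20820283-20820562, Mcm5 on the plus strand at chr8:75109259-75109538 and Mcm6 on the minus strand at chr1:128359676-128359955.
Pclaf: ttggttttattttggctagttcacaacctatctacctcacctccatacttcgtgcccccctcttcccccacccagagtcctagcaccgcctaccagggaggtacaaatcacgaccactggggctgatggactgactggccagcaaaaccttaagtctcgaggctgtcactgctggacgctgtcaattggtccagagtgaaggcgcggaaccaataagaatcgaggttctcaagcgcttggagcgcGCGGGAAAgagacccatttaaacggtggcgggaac
Mcm3: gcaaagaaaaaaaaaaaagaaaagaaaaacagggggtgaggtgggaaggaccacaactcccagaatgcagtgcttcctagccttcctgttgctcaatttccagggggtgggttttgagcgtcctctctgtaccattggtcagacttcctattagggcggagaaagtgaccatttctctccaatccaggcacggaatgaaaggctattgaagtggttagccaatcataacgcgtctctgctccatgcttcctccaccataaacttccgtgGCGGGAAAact
Mcm5: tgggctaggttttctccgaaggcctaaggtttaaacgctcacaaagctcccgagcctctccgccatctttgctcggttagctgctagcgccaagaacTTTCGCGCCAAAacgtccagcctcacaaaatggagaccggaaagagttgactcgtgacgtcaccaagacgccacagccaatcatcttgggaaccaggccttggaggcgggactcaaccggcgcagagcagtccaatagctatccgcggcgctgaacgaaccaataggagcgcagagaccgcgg
Mcm6: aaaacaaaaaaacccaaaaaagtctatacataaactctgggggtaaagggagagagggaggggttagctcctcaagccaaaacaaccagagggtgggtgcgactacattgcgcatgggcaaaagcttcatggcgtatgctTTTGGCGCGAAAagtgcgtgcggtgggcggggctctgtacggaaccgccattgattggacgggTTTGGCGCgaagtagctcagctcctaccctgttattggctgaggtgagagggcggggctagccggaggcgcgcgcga

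Pclaf held 1 match, beginning 5 bases before the start. Mcm5 held 2 overlapping matches and Mcm6 held 3, of which 2 overlapped, all before the start. Mcm3 held 2 matches after the start, the second of them beyond the printed stretch. A match is a description of these letters and not a measured binding site. Of the 9 S genes of the rule with a window, these 4 held a motif, and of 9 M genes with a window 1 did (Cdk1), against 744 of 32851 windows (2.26%) over all genes. Among gene lists described below, the motif was in 8 of 18 windows (44.4%) of G1/S cyclins, kinases and E2F factors, in 5 of 15 (33.3%) of origin licensing and in 7 of 24 (29.2%) of DNA polymerases and fork proteins. It was in 1 of 19 windows (5.26%) of nucleotide synthesis genes, in 2 of 36 (5.56%) of mitosis and spindle genes and in none of the 25 windows of naive and memory-like genes.

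S-biased cells made up a larger share of T cells in LatY136F than in CD45-KO. They were 3.45% of T cells (471 of 13640, interval 3.15 to 3.77%) in LatY136F and 1.23% (155 of 12645, 1.04 to 1.43%) in CD45-KO, a share 2.82-fold higher in LatY136F (2.34 to 3.40). They held 8.68% and 3.64% of all T cell UMIs. Every cell was also thinned to 2000 UMIs, which left out 5719 and 6332 shallower T cells but only 6 and 1 S-biased cells. The rule was then applied again to the thinned counts, so cells that no longer met it also left the class. The shares were 3.89% (307 of 7899) and 1.13% (71 of 6270), and the ratio was 3.43-fold. Other settings gave a smaller ratio. Thinned to 1000 UMIs with an S score of at least 3, which left out 398 and 328 T cells, it was 2.16-fold. Unthinned, with an S score of at least 4, it was 2.10-fold. Without the 2% of T cells with most UMIs, which could hold doublets, the ratio was 4.29-fold, with 2.66% and 0.621% of T cells. G2/M-biased cells, with an M score of at least 6 and at least equal to S, were 3.06% and 1.11% of T cells. S-biased cells were 53.0% of all cells of both cycling classes in LatY136F and 52.5% in CD45-KO. Thinned to 2000 UMIs, G2/M-biased cells were 4.68% (370 of 7899) and 1.898% (119 of 6270) of T cells, a ratio of 2.47-fold, so the balance of the classes moved with the depth used. Whether the ratio would hold between mice cannot be read from 1 library per genotype.

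Against the other T cells of their library, S-biased cells had higher levels of nearly every measured gene of the replication machinery, also outside the rule. The S score and these genes share their cells, so the difference describes the class and is not independent of its choice. Genes were compared as log2 ratios of CPM from summed UMIs, over 8102 genes with at least 10 CPM in T cells and without the rule genes, and a gene was counted past 1.5-fold. In LatY136F 1058 genes (13.1%) were higher and 1429 (17.6%) lower in S-biased cells, in CD45-KO 1313 (16.2%) and 1703 (21.0%). In both libraries together 878 (10.8%) were higher and 1014 (12.5%) lower. These counts moved with depth. Against other T cells weighted to the depth of the S-biased cells, 277 genes (3.42%) were higher and 194 (2.39%) lower in both libraries. With the G2/M-biased cells also taken out of that reference, 1007 (12.4%) were higher and 382 (4.71%) lower, but its deepest 10% then rested on 2 LatY136F and 4 CD45-KO cells.

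Origin licensing and firing genes, which load and start the Mcm helicase, were higher in 11 of the 11 measured members (of 18 listed) in each library, with medians of 2.41 and 2.42 on the log2 scale, LatY136F first here and below. The median over all genes was -0.09 and -0.07. Mcm7, a helicase subunit, was at 267 CPM in S-biased LatY136F cells against 34.4 in other T cells, and at 290 against 31.1 in CD45-KO (log2 2.96 and 3.22). Gmnn, geminin, the inhibitor that prevents a second loading of origins, was at 172 against 25.9 CPM and 155 against 19.3 CPM.

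DNA polymerases, clamp loaders and fork proteins were higher in 20 of 20 measured members in both libraries, with medians of 2.31 and 2.28. Lig1, the ligase that seals lagging strand fragments, was at 483 against 53.6 CPM in LatY136F and at 383 against 43.3 CPM in CD45-KO, and had a UMI in 80.9% and 76.1% of S-biased cells. Timeless and Clspn, which hold the fork together and link it to the checkpoint, had ratios of 3.19 and 3.66, and of 3.13 and 3.62. Prim1, the primase subunit, stood at 176 and 175 CPM in S-biased cells of the libraries, against 21.8 and 22.0 CPM in other T cells. Between the libraries, the CPM of each of these genes in S-biased cells differed by less than 1.5-fold.

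Nucleotide synthesis genes were higher in 18 of 18 measured members in both libraries, with medians of 1.52 and 1.64. Rrm1, the large subunit of ribonucleotide reductase, was at 258 against 47.7 CPM in LatY136F and at 239 against 34.3 CPM in CD45-KO, with ratios of 2.44 and 2.80. Ppat, which starts purine synthesis, had 1.53 and 1.73.

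Chromatin assembly and DNA methylation upkeep, the genes that rebuild chromatin behind the fork, were higher in 18 of 18 members with medians of 1.66 and 1.79. Uhrf1, which recruits the maintenance methyltransferase to new DNA, was at 252 against 21.3 CPM in LatY136F and at 225 against 11.7 CPM in CD45-KO. Chaf1a, the large subunit of chromatin assembly factor 1, had ratios of 3.54 and 4.63, and Hells, a remodelling helicase, of 3.49 and 3.39. Against the depth-weighted other T cells, 9 and 10 of the 18 were higher, with medians of 0.57 and 0.69.

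DNA repair and checkpoint genes were higher in 10 of 11 measured members in each library, with medians of 2.13 and 2.31. Ung, which removes uracil from DNA, stood at 107 CPM against 5.61 in LatY136F (4.25) and at 118 against 6.50 in CD45-KO (4.18). Outside the lists, Dtl, an adaptor that marks replication factors for destruction during S phase, was at 113 against 5.80 CPM and at 119 against 2.69 CPM, with ratios of 4.29 and 5.47, the highest by the naming rule. Fignl1, also outside the lists, had 3.31 and 4.22. Ung and Dtl had a UMI in 39.7% and 43.3% of S-biased LatY136F cells and in 1.29% and 1.18% of the other T cells of that library.

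G1/S cyclins, kinases and E2F factors were higher in 11 and 10 of 13 measured members, with medians of 1.36 and 1.94. E2f1, an activator of the S-phase genes, was at 90.5 against 6.42 CPM in LatY136F and at 76.2 against 2.95 CPM in CD45-KO. E2f8, a repressor of the same genes, was at 90.8 against 9.44 CPM and at 66.7 against 3.70 CPM. Ccne1, cyclin E1, which drives entry into S phase, had ratios of 3.69 and 3.44. An E2F activator and an E2F repressor were thus both higher in S-biased cells.

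Mitosis and spindle genes were higher as well, in 30 and 33 of 35 measured members with medians of 1.26 and 1.99, although the other T cells included the G2/M-biased cells. Stmn1, a microtubule regulator, was at 903 against 167 CPM in LatY136F and at 725 against 68.4 CPM in CD45-KO. This direction depended on the reference. The medians were -0.95 and -0.98 against other T cells weighted by depth, whose deep cells are largely G2/M-biased, and 3.29 and 3.93 once those were taken out.

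**Figure D2:**
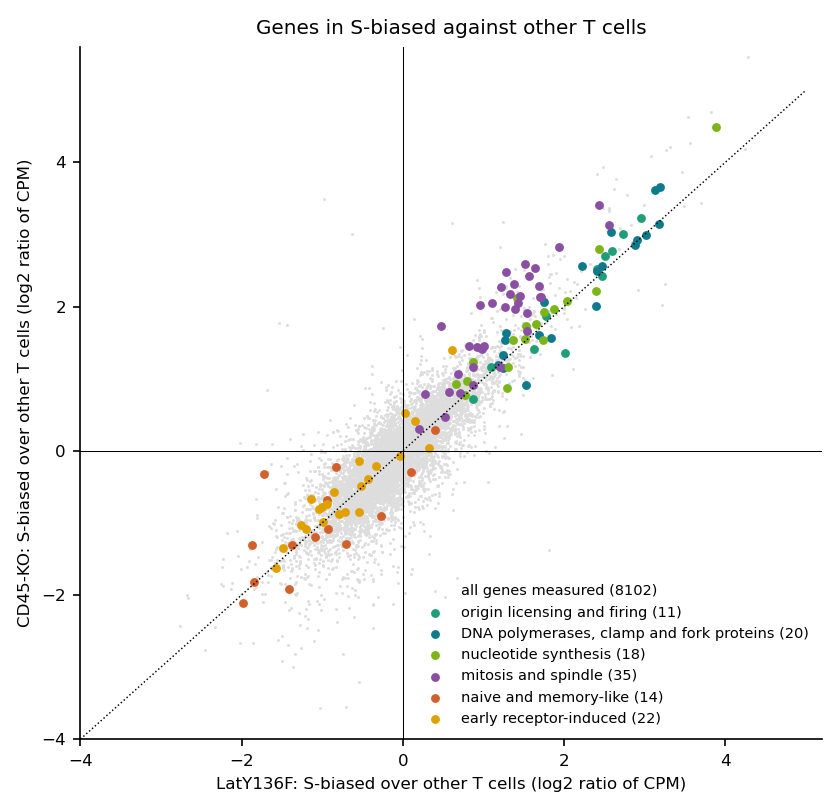
Log2 ratio of CPM in S-biased over other T cells for the 8102 genes measured (grey) in LatY136F (x axis) and CD45-KO (y axis), with 6 gene lists in colour and the dotted line marking equal ratios. Replication lists lie at the upper right near the line, mitosis genes above it, and naive and early receptor-induced genes mostly at the lower left.

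Genes of resting T cells and of recent receptor signalling were lower in S-biased cells. Naive and memory-like genes were lower in 11 and 10 of 14 measured members and higher in 0, with medians of -1.02 and -1.14. Il7r, the receptor for the survival cytokine interleukin 7, stood at 348 CPM against 1374 in LatY136F and at 442 against 1907 in CD45-KO (log2 -1.98 and -2.11). Txnip, an inhibitor of glucose uptake, had ratios of -1.84 and -1.82, and S1pr1, the receptor that lets T cells leave lymphoid tissue, of -1.41 and -1.92. The early receptor-induced list was lower in 12 of 22 members in each library, with medians of -0.76 and -0.71, and included Zfp36 (-1.49 and -1.35), a factor that destabilises cytokine messages, and Fos (-1.27 and -1.03). Against the depth-weighted reference without G2/M-biased cells the medians came closer to 0, at -0.66 and -0.41 for naive genes and at -0.41 and -0.21 for early genes.

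Cycle inhibitors and quiescence genes were lower in 7 and 8 of 12 measured members, with medians of -0.68 and -0.78. Btg2, an antiproliferative factor, was at 116 against 361 CPM in LatY136F and at 150 against 462 CPM in CD45-KO, and Btg1 had ratios of -1.52 and -1.54. The list also held 2 members that were higher in both libraries, Cdkn1a (1.71 and 2.22), the inhibitor p21, and Cdkn2c (1.498 and 1.74), an inhibitor of Cdk4 and Cdk6. Cdkn1a did not keep its direction against the depth-weighted reference without G2/M-biased cells, where it had -1.35 and -0.22, while Cdkn2c was above 0 in both libraries, with 2.83 in CD45-KO.

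Other genes at the low end by the naming rule were Slfn5, a Schlafen family gene (-2.33 and -2.45), Ccr2, a chemokine receptor (-2.13 and -1.92), Card6 (-2.24 and -1.88), Acsbg1 (-1.85 and -2.67), Hs3st3b1, a heparan sulfate sulfotransferase (-1.84 and -1.92), and Phf1 (-1.74 and -2.10). Against the depth-weighted reference without G2/M-biased cells these 6 ran from -2.39 for Slfn5 in both libraries to -0.74 for Hs3st3b1 in CD45-KO. Lyz2, a myeloid gene, also ranked there, with 2 and 1 UMIs in S-biased cells and a UMI in 0.395% and 0.681% of other T cells.

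Biosynthetic genes were higher by smaller ratios. MYC and ribosome biogenesis genes were higher in 14 and 16 of 20 members, with medians of 0.88 and 0.87, and Odc1, which starts polyamine synthesis, stood at 155 against 43.3 CPM and at 221 against 66.6 CPM. Glycolysis genes were higher in 8 of 15 members in each library, with medians of 0.63 and 0.60, among them Tpi1 (1.45 and 1.58) and Gapdh (0.99 and 1.20). Nuclear genes of oxidative phosphorylation were higher in 13 and 16 of 24 members (0.62 and 0.69), proteasome genes in 8 and 13 of 21 (0.55 and 0.71), and cholesterol and fatty acid synthesis genes in 8 of 15 in each library (0.77 and 0.65). Idi1, of the isoprenoid pathway, was at 68.2 against 17.0 CPM and at 91.4 against 14.1 CPM. Heat shock genes were higher in 6 of 12 members in each library (0.64 for both medians), among them Hspd1, mitochondrial Hsp60, with 1.34 and 1.66.

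T helper 2 and T follicular helper genes had medians of opposite sign against the other T cells. T helper 2 genes were lower in 7 and 5 of 13 measured members and higher in 2 in each library, with medians of -0.67 and -0.51. Gata3, the regulator of this lineage, was at 567 against 1060 CPM and at 491 against 985 CPM, and Il1rl1, the receptor for interleukin 33, had ratios of -1.80 and -1.48. Il4 went the other way, with 75.4 against 33.1 CPM in LatY136F and 68.6 against 30.1 CPM in CD45-KO. T follicular helper genes, among them Pdcd1, the receptor PD-1 (1.23 and 1.24), were higher in 6 and 9 of 11 members with medians of 0.94 and 0.83. Their medians were -0.072 and 0.10 against the depth-weighted reference without G2/M-biased cells, so that the direction of this list rested on the reference.

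Il2ra, the high-affinity interleukin 2 receptor chain, stood at 175 against 45.8 CPM in LatY136F and at 106 against 22.2 CPM in CD45-KO (1.94 and 2.25). Against the depth-weighted reference without G2/M-biased cells it had -0.91 and 0.34. Counting cells thinned to 2000 UMIs, Il2ra had a UMI in 16.3% and 12.99% of S-biased cells and in 5.75% and 2.76% of other T cells. The share of cells thus differed at equal depth, while the direction of the ratio of summed UMIs depended on the reference.

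Markers of other cell types were present in S-biased cells. The 16 B and plasma cell markers, among them the antigen presentation genes H2-Aa, H2-Ab1 and Cd74, summed to 892 CPM in S-biased and 284 CPM in other T cells of LatY136F, and to 2270 and 658 CPM in CD45-KO. In S-biased cells 15 of the 16 genes had a UMI in each library. At least 1 UMI of these genes was in 67.9% and 60.6% of S-biased cells and in 31.3% and 27.4% of other T cells, while high counts were in few cells. Cells with at least 3 UMIs of B cell genes, 10 UMIs of plasma cell genes or 20 UMIs of MHC class II genes, thresholds set after seeing the data, were 11 of 471 S-biased cells (2.34%) in LatY136F and 9 of 155 (5.81%) in CD45-KO, against 2.88% and 7.14% of G2/M-biased cells and 0.243% and 0.456% of other T cells. Immunoglobulin genes took at least 5% of the UMIs in 0 and 3 of the S-biased cells. The 18 myeloid and dendritic markers summed to 389 CPM in S-biased and 417 CPM in other T cells of LatY136F and to 455 and 473 CPM in CD45-KO. The 13 NK cell markers summed to 135 and 144 CPM in LatY136F and to 217 and 117 CPM in CD45-KO, and the defining receptor gene Ncr1 was at 0 UMIs in S-biased cells of both libraries. Doublets were not called and were kept, and their part in these markers was not tested. Results that changed without the 20 marker cells are given with both values.

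G2/M-biased cells are the nearest class in score and in depth, with medians of 6075 and 6428.5 UMIs. Against them, S-biased cells had higher medians of the licensing, fork protein and nucleotide synthesis lists and a lower median of the mitotic list in both libraries. The scores chose both classes, so this too is a description. In LatY136F 913 genes (11.3%) were higher and 367 (4.53%) lower in S-biased cells, in CD45-KO 1279 (15.8%) and 776 (9.58%), and in both libraries 475 (5.86%) were higher and 231 (2.85%) lower. Mitosis and spindle genes were lower in 35 of 35 members in each library, with medians of -1.80 and -2.11. Plk1, the mitotic kinase, was at 41.6 CPM in S-biased and 291 CPM in G2/M-biased LatY136F cells, and at 40.0 and 266 CPM in CD45-KO. Aspm, a spindle pole protein, and Kpna2, a nuclear import factor, had -3.16 and -3.68, and -2.72 and -2.92.

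Licensing genes were higher than in G2/M-biased cells in 6 of 11 members in each library and lower in 1, with medians of 0.96 and 1.06, fork proteins in 11 and 10 of 20 (0.67 and 0.57), and nucleotide synthesis in 11 and 12 of 18 (0.76 and 0.74). Other lists of replicating cells were mixed. Chromatin assembly was higher in 6 of 18 members in each library and lower in 3 and 4 (0.17 and 0.14), DNA repair was higher in 4 and 5 of 11 (0.33 and 0.18), and histone genes were lower in 2 and 3 of 4 (-0.72 and -1.18). Among the rule genes Pclaf was lower in S-biased cells, at 923 against 1094 CPM and at 772 against 957 CPM.

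Ung had the highest ratios of the genes named as higher, with 325 UMIs in S-biased and 15 in G2/M-biased LatY136F cells and 124 and 5 in CD45-KO (4.36, interval 3.62 to 5.21, and 4.64, 3.38 to 6.29). Dtl (1.93 and 2.22), E2f1 (2.17 and 2.16), Mcm2 (1.75 and 1.89) and Hells (1.67 and 1.79) followed. Il4 was named by the same rule outside the replication lists, at 75.4 against 22.9 CPM in LatY136F and 68.6 against 15.1 CPM in CD45-KO (1.72 and 2.18). Early receptor-induced genes, lower than in other T cells, were higher than in G2/M-biased cells in 10 of 22 members in each library, with medians of 0.38 and 0.48. MYC and ribosome biogenesis genes were higher in 10 and 14 of 20 (0.57 and 0.68). By these medians, S-biased cells lay between other T cells and G2/M-biased cells in the early genes.

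S-biased cells varied among themselves along the share of M transcripts, M/(S+M). This share was 0 in 62 LatY136F and 39 CD45-KO cells, up to 0.25 in 198 and 69, and above 0.25 to below 0.5 in 211 and 47. The bins used rule genes and differ in depth, so the values below describe the order and were read only for genes outside the rule. Median S scores were 8, 17 and 35 in LatY136F and 7, 16 and 35 in CD45-KO, so the bins also follow the S score. Median UMIs were 4450.5, 5349 and 6575 in LatY136F and 4463, 5903 and 8243 in CD45-KO. The CD45-KO cells had more members in the first bin, 25.2% against 13.2%.

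Helicase genes were present from the first bin on, and the summed licensing list was at 964, 1815 and 1964 CPM in LatY136F and at 917, 1878 and 1845 CPM in CD45-KO. Mcm7 went up at each step, with 116, 273 and 291 CPM and with 157, 304 and 334 CPM. Mcm4 was at 259, 319 and 290 CPM across the bins in LatY136F and at 250, 354 and 273 CPM in CD45-KO, without an order. Lig1 stepped up between the first bin and the rest, with 184, 501 and 525 CPM and with 195, 438 and 407 CPM. Cdc6, a loader of the helicase, did the same, with 10.2, 124 and 117 CPM and with 10.9, 88.5 and 104 CPM. Rrm1 went up at each step, with 37.5, 208 and 335 CPM and with 92.2, 213 and 329 CPM.

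Genes of later phases were concentrated in the last bin. Ccna2, cyclin A2, which acts in S and G2, was at 6.81, 91.3 and 364 CPM in LatY136F and at 5.43, 109 and 299 CPM in CD45-KO. Mki67 was at 126, 490 and 1114 CPM and at 92.2, 476 and 1205 CPM. Aurkb, a kinase of the mitotic spindle, was at 3.41, 9.48 and 80.8 CPM, and was at 0, 11.3 and 84.7 CPM in CD45-KO. The summed mitosis and spindle list went from 2109 to 5238 and 10466 CPM in LatY136F. In CD45-KO it went from 2317 to 5112 and 10273 CPM. The M genes of the rule set the bins, so this rise is not independent of the binning.

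Genes of resting and helper cells ran the other way. Ccnd2, cyclin D2, a cyclin of G1, was at 1485, 953 and 594 CPM in LatY136F and at 1969, 1116 and 499 CPM in CD45-KO. Il7r was at 654, 438 and 226 CPM and at 732, 528 and 226 CPM, and Gata3 was at 886, 614 and 473 CPM and at 863, 540 and 280 CPM. The summed naive and memory-like list was at 3312, 2255 and 1536 CPM and at 3299, 2744 and 1824 CPM. The order of these 3 genes was the same in both libraries. Anxa2 went up across the bins in both libraries but at different levels, 521, 632 and 833 CPM against 114, 179 and 266 CPM.

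**Figure D3:**
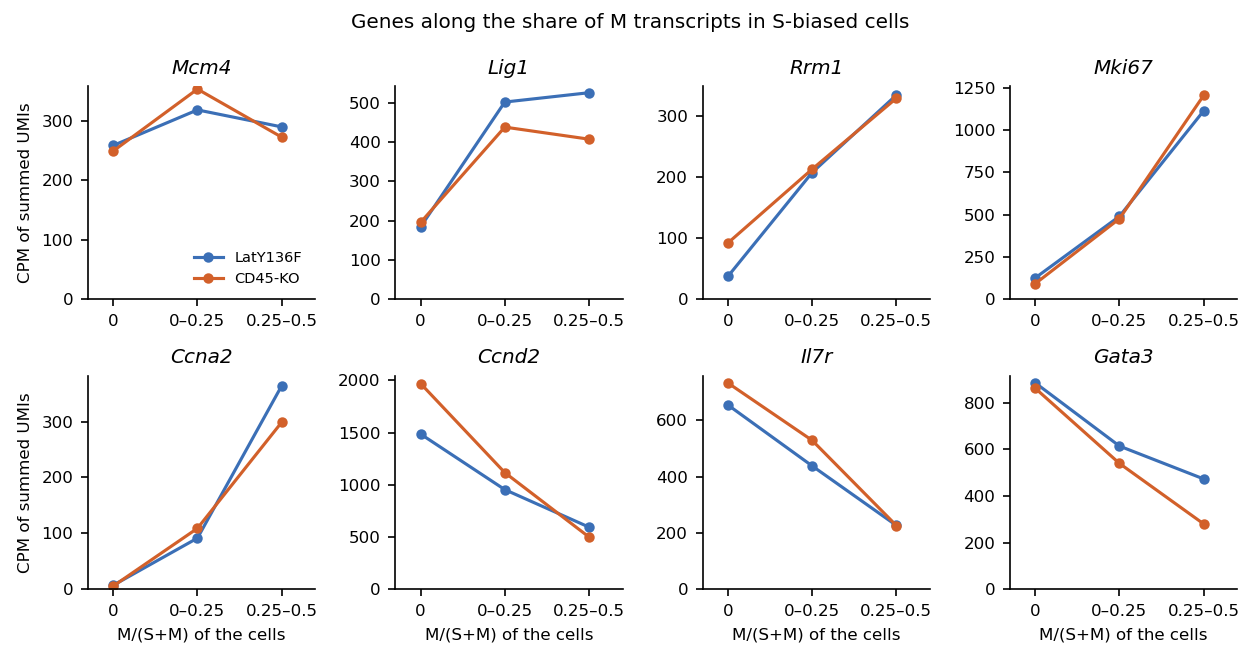
CPM of summed UMIs of 8 genes outside the rule (y axes, from 0) in S-biased cells grouped by the share of M transcripts in the cell (x axes), for LatY136F (blue, 62, 198 and 211 cells) and CD45-KO (orange, 39, 69 and 47 cells). Rrm1, Mki67 and Ccna2 go up at each step and Ccnd2, Il7r and Gata3 go down in both libraries, while Mcm4 has no order.

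Most S-biased cells had Cd4 transcripts. Cd4 had a UMI in 402 LatY136F cells (85.4%, interval 81.8 to 88.4%) and in 138 CD45-KO cells (89.0%, 83.0 to 93.5%). The shares in the shallower other T cells were 66.1% and 66.2%, and 5 of 9 and 9 of 29 cells with at least 3 UMIs of B cell genes, outside the S-biased cells, also had a Cd4 UMI. The part of free RNA and of doublets in these shares was not tested. Thinned to 2000 UMIs, Cd4 had a UMI in 58.9% and 64.9% of S-biased cells and in 64.6% and 66.3% of other T cells. At equal depth Cd4 was thus not detected in a larger share of S-biased cells, and the intervals of the CD45-KO shares overlapped.

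Cd8b1, a chain of the CD8 coreceptor, had a UMI in 9 LatY136F members (1.91%) and 11 CD45-KO members (7.10%, 3.60 to 12.3%), against 0.418% and 0.544% of other T cells. Thinned, it was in 0.430% and 2.60% of members (2 and 4 cells) and in 0.362% and 0.617% of other T cells. Of the 12 CD45-KO members with Cd8a or Cd8b1, 8 also had Cd4. Foxp3, the regulator of regulatory T cells, had a UMI in 8 of 471 LatY136F members. No UMI of it was found in the 155 CD45-KO members, which by the limit of 3 counts allows a share of cells with a UMI of up to 1.94%, for counting error only. Trdc, of the gamma delta receptor, was in 6.16% and 1.94% of members, against 4.08% and 1.68% of the shallower other T cells. Thinned to 2000 UMIs, it was in 3.23% and 1.30% of members and in 3.78% and 1.69% of other T cells. At equal depth Trdc was thus not detected in a larger share of S-biased cells.

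Gata3 had a UMI in 92.6% and 87.7% of S-biased cells. At 2000 UMIs it was in 67.3% and 57.8% of them and in 83.8% and 79.4% of other T cells, and Il1rl1 was in 23.0% and 37.0% against 50.4% and 58.4%. Il4 was in 6.67% and 11.7% of thinned S-biased cells and in 5.31% and 4.85% of other T cells, and the LatY136F intervals overlapped. Gzmb, granzyme B, was in 11.8% and 7.14% against 11.95% and 2.70%. Gata3 and Il1rl1 were thus detected in a smaller share of S-biased than of other T cells at equal depth in both libraries.

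Seen from the other side, cells were called S-biased again after thinning to 2000 UMIs, which gave 307 LatY136F and 71 CD45-KO cells. The thinned shares of cells with a transcript, given above, instead used 465 and 154 cells called before thinning. The share of S-biased cells differed between T cells with and without given transcripts. It was 9.90% of LatY136F T cells with Il2ra (50 of 505, interval 7.44 to 12.8%) and 3.48% of those without. In CD45-KO it was 5.88% (11 of 187, 2.97 to 10.3%) and 0.986%. It was 5.58% and 1.73% of cells with Anxa2, against 2.30% and 0.972% of cells without, though the CD45-KO intervals overlapped. It was lower among cells with Il7r, with 2.15% against 9.03% in LatY136F and 0.588% against 4.004% in CD45-KO, and among cells with Il1rl1, with 1.56% against 6.11% and 0.577% against 1.899%. Within each of these groups the LatY136F share was above the CD45-KO share, which did not hold for every transcript checked. Among cells with Eomes the shares were 2.15% (5 of 233) in LatY136F and 3.32% (8 of 241) in CD45-KO. Among cells with Nkg7 they were 3.04% (8 of 263) and 3.95% (6 of 152), and the intervals overlapped for both genes. Tcf7, a regulator of naive and stem-like T cells, marked 1.902% against 4.47% in LatY136F and 0.909% against 1.31% in CD45-KO, where the intervals overlapped. For Il4 the shares with and without a UMI were 2.58% and 3.96% in LatY136F and 2.85% and 1.04% in CD45-KO. These intervals overlapped in both libraries.

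Between genotypes, S-biased cells were compared over the 7746 genes with at least 50 UMIs summed over the members of both libraries. Of these, 469 (6.05%) were higher and 511 (6.60%) lower in CD45-KO past 1.5-fold. In other T cells the same genes gave 124 higher (1.60%) and 351 lower (4.53%), from many more UMIs. In S-biased cells 354 of the higher and 342 of the lower genes had an interval on the same side of 0. Without the 2% of T cells with most UMIs 865 genes were lower. The log2 ratios that follow set CD45-KO against LatY136F, with positive values for genes higher in CD45-KO.

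Ptprc (chr1:138062861-138175708, GRCm38, minus strand) was detected in the CD45-KO library. It stood at 1182 CPM in LatY136F and 843 CPM in CD45-KO S-biased cells, a ratio of -0.49 (interval -0.60 to -0.38), and at 1813 and 1180 CPM in other T cells (-0.62). The labels do not name the deleted part of the gene, so its transcripts check the genotype only in part. Lat (chr7:126363824-126369570, minus strand), mutated in both genotypes, was at 334 and 266 CPM (-0.33). Ptprcap, whose protein binds CD45, was at 890 and 532 CPM (-0.74, -0.87 to -0.61). The proximal receptor signalling list, Ptprcap included, gave a median of 0.00 over 22 members, with Ptprcap the 1 member past 1.5-fold.

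The 6 lists given next, counted without the rule genes, had medians between -0.20 and 0.07 between genotypes within S-biased cells. Origin licensing had a median of -0.09 with 1 of 17 members lower, fork proteins -0.09 with 1 of 25 higher and 1 lower, nucleotide synthesis 0.07 with 0 of 19 past 1.5-fold, chromatin assembly -0.14 with 0 of 18, and DNA repair -0.18 with 2 of 19 lower. The G1/S list was at -0.20, with 1 of 18 members higher and 2 lower. The median over all 7746 genes was 0.00. Most rule genes, which chose the cells and are no finding, were lower in CD45-KO. Among them were Tk1 (151 and 83.8 CPM), Rrm2 (435 and 291 CPM), Hmmr (72.1 and 39.0 CPM) and Ccnb2 (119 and 77.1 CPM). Ccnb1 went the other way, with 40.3 and 44.8 CPM. Among the members past 1.5-fold were Ccne1, of the G1/S list, at 89.5 and 54.3 CPM (-0.72), and Dbf4, the activator of the kinase that fires origins, at 80.7 and 48.6 CPM (-0.73). With the CD45-KO cells reweighted to the M shares of LatY136F, a step added after seeing the data, Ccne1 was at -0.50 and Dbf4 at -0.49, under 1.5-fold, while 2 DNA repair members were lower and 1 fork member higher past 1.5-fold in that setting too.

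Mitosis and spindle genes had a median of -0.24 in S-biased cells, with 4 of 39 lower, and of -0.95 in other T cells, with 33 of 39 lower. The other T cells include the G2/M-biased cells, whose share differed between libraries. Within G2/M-biased cells, where 7.91% of all genes were higher and 5.86% lower, the median was 0.064 and no member was past 1.5-fold. Reweighted to the LatY136F M shares, the S-biased median was 0.00. Kif23, a kinesin of cell division, was an exception at 84.6 and 33.3 CPM (-1.34, -1.90 to -0.83), and remained at -1.01 after reweighting. In G2/M-biased cells it had 0.20.

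**Figure D4:**
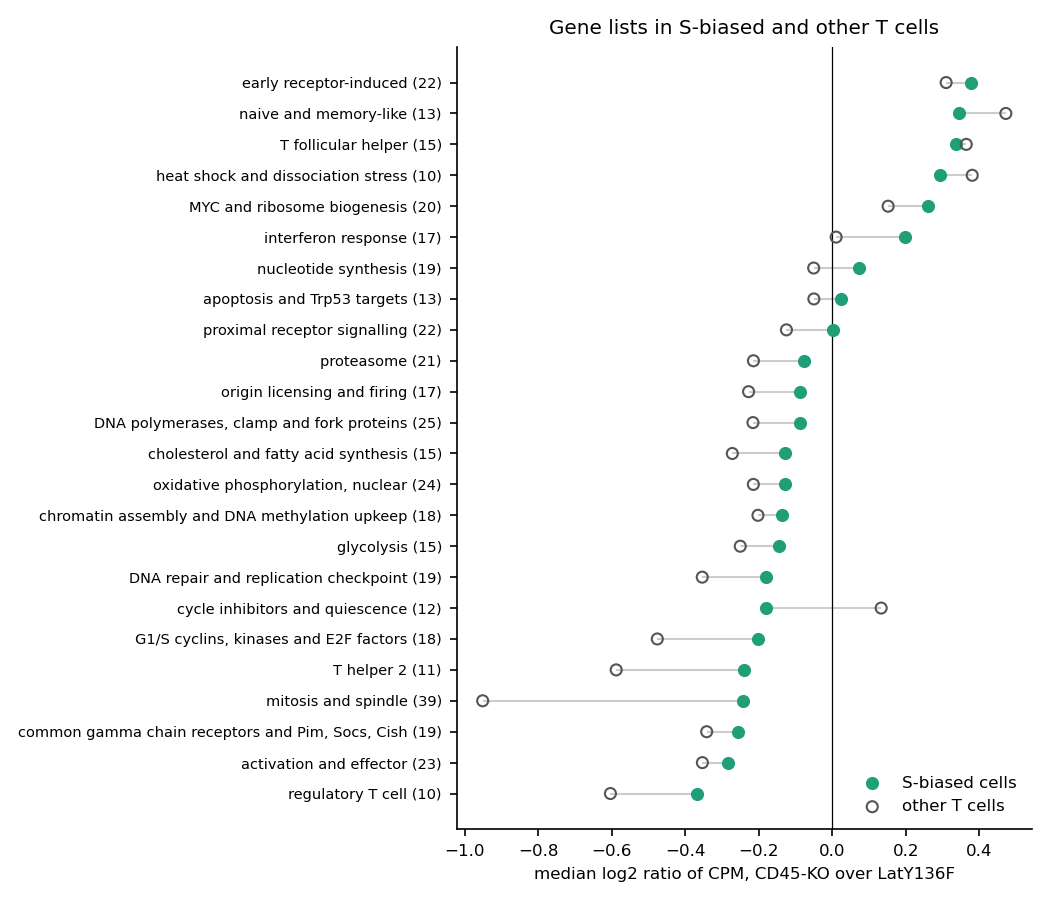
Median log2 ratio of CPM, CD45-KO over LatY136F (x axis), for gene lists (y axis, with the number of members measured) in S-biased cells (filled) and other T cells (open). Licensing, fork protein and nucleotide synthesis lists lie near 0 in S-biased cells, and mitosis and spindle genes lie at -0.24 in S-biased and -0.95 in other T cells.

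The genes lowest in CD45-KO S-biased cells included effector, cytoskeletal and adaptor genes. Anxa2, annexin A2, a membrane-binding protein, was at 726 CPM in LatY136F and 203 CPM in CD45-KO (-1.84, -2.05 to -1.64), with a UMI in 83.4% and 46.5% of members. Thinned to 2000 UMIs it was in 63.0% and 22.1%. In other T cells its ratio was -1.53. Lgals3, the lectin galectin-3, was at 305 and 119 CPM (-1.36), and Vim, vimentin, at 2624 and 1511 CPM (-0.80, -0.87 to -0.72). These 3 genes differed in the same direction in other T cells, where Lgals3 had -1.03 and Vim -0.45.

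Trat1, an adaptor that stabilises the T cell receptor, was at 606 and 269 CPM (-1.17, other T cells -0.98), and Dok2, an adaptor that restrains receptor signals, at 270 and 110 CPM (-1.29, other T cells -0.82). Ndrg1 was at 81.7 and 25.7 CPM (-1.67) and Pglyrp1 at 180 and 76.2 CPM (-1.24). Gzmb was at 147 and 66.7 CPM (-1.14), but 111 of its 448 LatY136F UMIs came from 1 cell, and in other T cells it had -2.52. Tnfrsf8, the receptor CD30, was at 117 and 52.4 CPM (-1.16) and had -2.61 in other T cells. Focad had -1.41 and -1.81. Trp53bp1, a DNA damage response protein, was at 51.8 and 17.1 CPM (-1.60, -2.39 to -0.89) and had -0.051 in other T cells and 0.33 in G2/M-biased cells. It rested on 18 UMIs in CD45-KO, and the difference between the classes was not tested.

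Among genes higher in CD45-KO S-biased cells, several rested on few cells. Slpi, a protease inhibitor, had 418 UMIs in 9 CD45-KO members, 204 of them in 1 cell, against 8 in LatY136F, and its ratio went from 7.25 to 1.35 without the marker cells. Mzb1, a plasma cell chaperone, had 143 UMIs in 4 CD45-KO members and 0 in either library without the marker cells. H2-Ab1 went from 1.38 to -1.52 and Pou2af1, a B cell coactivator, from 2.13 to 0.99 in the same step. Mzb1 and H2-Ab1 are among the genes that define the marker cells, so that step took out their highest counts by design. Xcl1, a chemokine, had 86 of its 110 CD45-KO UMIs in 1 cell. Ccl1, another chemokine, had 118 of 254 in 1 cell, and its ratio went from 1.79 to -0.47 without the 2% of T cells with most UMIs. The ratios of Slpi, Mzb1, Xcl1 and Ccl1 thus rested on few cells, while those of H2-Ab1 and Pou2af1 moved with the marker cells.

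Tcf7 was spread over many cells. It stood at 89.9 CPM in LatY136F and 244 CPM in CD45-KO (1.44, 1.19 to 1.69), with a UMI in 24.0% and 53.5% of members, and in 14.2% and 31.2% at 2000 UMIs. Its ratio was 1.18 in other T cells, 1.56 in G2/M-biased cells and 1.45 without the marker cells. Along the bins of M share Tcf7 was at 133, 93.1 and 79.6 CPM in LatY136F and at 152, 311 and 214 CPM in CD45-KO. The difference between the libraries was thus smallest in the first bin. Klf3, a repressor linked to quiescence, was at 51.8 and 129 CPM (1.31), and Bach2, a repressor of effector genes, at 7.54 and 27.6 CPM (1.87). The naive and memory-like list had 4 of 13 members higher and 0 lower, with a median of 0.34, and 0.47 in other T cells. Within CD45-KO, Tcf7 was still lower in S-biased than in other T cells, at 244 against 390 CPM.

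Eomes, a T-box regulator of cytotoxic and memory cells, was at 16.1 and 63.8 CPM (1.99, 1.44 to 2.55), in 5.31% and 11.6% of members, and had 0.43 in other T cells. Of the 18 CD45-KO members with Eomes, 13 also had Cd4 and 9 had Tcf7. Nkg7, a cytotoxic granule gene, was at 18.03 and 42.8 CPM (1.25), and 7 of the 11 CD45-KO members that had it also had Eomes, against 4 of 27 in LatY136F. Akr1c18, a steroid-metabolising enzyme, was at 78.7 and 375 CPM (2.25, 2.02 to 2.49) in 32 and 24 cells, with 86 of 394 CD45-KO UMIs in 1 cell. Slc17a6, a vesicular glutamate transporter, had 2.12 with UMIs in 9 and 16 cells, Serpinb6b 1.76 and Ms4a6c 1.89. The cytotoxic and T helper 1 list had 4 of 6 measured members higher and 1 lower, with a median of 1.27 against 0.19 in other T cells. It included Xcl1, and it shares Eomes and Nkg7 with the NK cell markers.

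**Figure D5:**
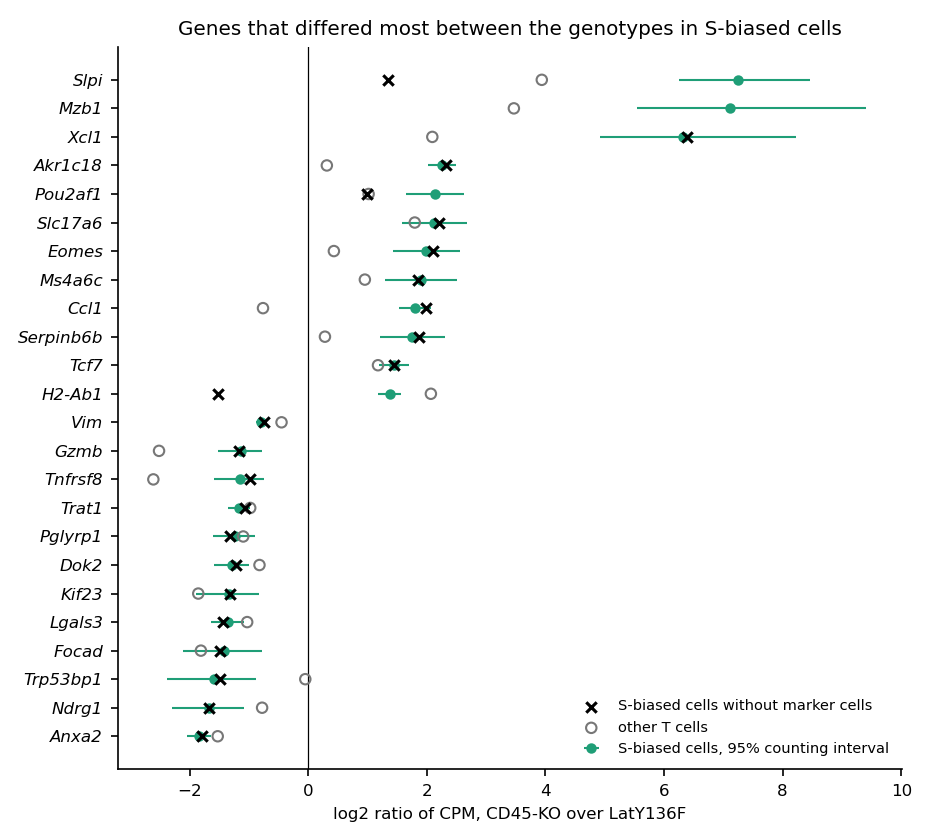
Log2 ratio of CPM, CD45-KO over LatY136F (x axis), of the 12 highest and 12 lowest genes by the naming rule in S-biased cells (green, with 95% counting interval), in S-biased cells without the B, plasma cell and MHC class II marker cells (crosses; Mzb1 had no UMI there) and in other T cells (open circles). Slpi, Pou2af1 and H2-Ab1 shift without the marker cells, while Tcf7 and Anxa2 stay near 1.45 and -1.79.

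Early receptor-induced genes were higher in CD45-KO S-biased cells in 9 of 22 measured members and lower in 0, with a median of 0.38, and 0.31 in other T cells. Jun, a subunit of AP-1, was at 12.1 and 44.8 CPM (1.88, 1.23 to 2.55), Fosb had 1.20 and Egr2 0.85, against 1.60, 0.98 and 0.06 in other T cells. Heat shock and dissociation stress genes moved with them, with a median of 0.29 in S-biased and 0.38 in other T cells and 2 of 10 members higher, and their part in the early genes was not tested. Myc was at 42.0 and 69.5 CPM (0.73), and the MYC and ribosome biogenesis list had a median of 0.26 with 2 of 20 higher.

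T follicular helper genes were higher in 6 of 15 members, with a median of 0.34 (0.36 in other T cells). Bcl6, the regulator of that lineage, was at 14.1 and 40.9 CPM (1.54), Cd200 at 44.9 and 92.4 CPM (1.04) and Cxcr5 at 14.4 and 26.7 CPM (0.89). Some B-marker cells also had Bcl6, 5 of 29 in CD45-KO, and without the marker cells its ratio in S-biased cells was 1.505. Interferon response genes were higher in 6 of 17 members with a median of 0.20, led by Ifi208 at 5.90 and 40.0 CPM (2.76, 2.57 in other T cells). Ikzf2, the factor Helios, was at 34.8 and 82.8 CPM (1.25), and none of the 40 and 29 members with it had Foxp3.

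Activation and effector genes were lower in 7 of 23 members and higher in 2, with a median of -0.28, and without the marker cells, where 6.40% of all genes were higher and 7.05% lower, 4 members were lower and 2 higher. Itga4, an integrin chain, was among the higher, at 195 and 372 CPM (0.93). T helper 2 genes were lower in 3 of 11, with a median of -0.24 and of -0.59 in other T cells, and included Nfil3 (-0.87), while Il1rl1 was at 165 and 246 CPM (0.58). Receptors of the common gamma chain and their Pim, Socs and Cish targets were lower in 4 of 19, with a median of -0.26. Il2ra was at 175 and 106 CPM (-0.73, -1.04 to -0.43), which became -0.43 without the marker cells, under 1.5-fold. Socs2, a feedback inhibitor of cytokine signals, was at 42.3 and 16.2 CPM (-1.39).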

How the data were processed

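Spleen T cells of 2 genotypes were profiled as 1 library each. The authors deposited UMI counts per gene and cell, made with the BD WTA Multiplex Rhapsody pipeline 1.9.1 on GRCm38 with GENCODE M19, per the file headers. Version 2.0 and Seurat 4.04 appear in the series' design text. GRCm39 is listed per the submitters' processing notes. Which held for these files is not settled here.

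Counts were summed per library and class and scaled to CPM. Ratios carry exact conditional binomial 95% intervals and shares Clopper-Pearson intervals. A group at 0 was set to 3 counts. Lists held 31 gene sets. The members, lists and tests were chosen with earlier results of these data known. Named genes were the 12 highest and 10 lowest against other T cells, the 12 highest and 12 lowest between genotypes and the 6 highest and 6 lowest against G2/M-biased cells. They were ranked by the interval bound nearest 0, with at least 50 CPM in a group. Up to 4 members per list with the largest ratios and at least 20 CPM were added, and other list members named were chosen after their values were seen. Receptor segments, mitochondrial, ribosomal, haemoglobin, immunoglobulin and sex-linked genes were not ranked. Some genes that the rule names are not reported here. Ptprc and Lat locations are from GENCODE M21. Alternatives changed cell filters, thresholds, depth, scaling and the filter on low counts. Python 3.11.15, numpy 2.4.6, scipy 1.17.1, pandas 2.3.3 and matplotlib 3.10.9 were used. The ratios and their intervals were tested on simulated independent counts, and the other steps were not. Those counts did not cluster in single cells, as the UMIs of some genes did here.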

Additional observations from a re-analysis of the deposited data

Results flagged for a closer look

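For 5 named genes the ratio of S-biased over other T cells lay below 0 in LatY136F and above 0 in CD45-KO, each with its counting interval clear of 0, and the difference between the libraries was not tested. Slpi had a log2 ratio of -1.54 in LatY136F and 1.77 in CD45-KO, from 8 and 418 UMIs in S-biased cells. Jchain, the joining chain of secreted antibodies, had -1.68 and 0.85, from 20 and 258 UMIs. Nkg7 had -0.42 and 0.87, with 18.03 CPM in S-biased and 24.2 CPM in other T cells of LatY136F and with 42.8 and 23.4 CPM in CD45-KO. Ms4a6c had -0.48 and 0.46, and Ctss, a lysosomal protease of antigen-presenting cells, had -0.20 and 0.36. Some upper bounds in LatY136F lay close to 0, at -0.028 for Nkg7, -0.036 for Ms4a6c and -0.055 for Ctss. In CD45-KO the lower bound of Ms4a6c was 0.038. Thinned to 2000 UMIs, Nkg7 had a UMI in 3.44% of S-biased and 3.31% of other T cells of LatY136F. Slpi and Jchain moved with the B, plasma cell and MHC class II marker cells, which were 2.34% and 5.81% of the S-biased cells. Without those cells their CD45-KO over LatY136F ratios in S-biased cells were 1.35 and 0.03. Jchain is among the genes that define those cells, so its fall was built into that step.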

How the results depend on the processing

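No paired analysis was possible because each genotype has 1 library. The cause of each change below was not tested. The share of S-biased T cells was 3.91% in LatY136F with at most 10% mitochondrial UMIs. It was 5.90% and 2.81% in LatY136F and CD45-KO (2.10-fold) at an S score of at least 4, 2.68% and 0.838% at 10, and 2.54% and 1.03% at an S score of at least 2 times M. It was 2.66% and 0.621% (4.29-fold) without the 2% of T cells with most UMIs. Thinned to 2000 UMIs the LatY136F share was 3.89% (3.43-fold), and thinned to 1000 UMIs with an S score of at least 3 it was 3.01% (2.16-fold).

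Genes higher and lower than in other T cells in both libraries numbered 555 and 375 at an S score of at least 4, 504 and 560 without the 2% of cells with most UMIs, and 277 and 194 against depth-weighted other T cells. With the G2/M-biased cells also left out, an alternative added after seeing the data, 382 were lower. With no filter on low counts 2081 were higher. Against G2/M-biased cells that setting gave 887 higher and 454 lower, and between genotypes 2006 higher and 1149 lower in CD45-KO. Without the 2% of cells with most UMIs 865 genes were lower in CD45-KO.

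Among the genes checked here, most of them ranked highest or lowest, values that changed sign were few. Lyz2 in CD45-KO was 0.47 above other T cells at an S score of at least 4. Between genotypes Ccl1 was -0.47 and Penk, the gene of proenkephalin, was -1.20 without the 2% of cells with most UMIs. H2-Ab1, which helps define the marker cells, was -1.52 without them. The direction was the same in every setting run for 43 of 44 ratios to other T cells and 24 of 24 to G2/M-biased cells. Between genotypes it was the same for 27 of 30. The count against other T cells leaves out further genes named above, such as Cdkn1a and Il2ra, whose sign changed with the reference in at least 1 library.

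Among list medians, against depth-weighted other T cells histone genes were at -0.16 and -0.68, mitosis genes at -0.95 and -0.98, and in CD45-KO cytotoxic genes at -0.32, B and plasma cell markers at -0.94 and NK cell markers at -0.51. Without G2/M-biased cells in that reference, T follicular helper genes were at -0.072 in LatY136F and B and plasma cell markers at -0.59 and -1.59. Without the marker cells, B and plasma cell markers were at -0.12 against other T cells in CD45-KO and at -0.58 between genotypes. Genes of that list define the marker cells, so a fall was built into this step. Against G2/M-biased cells in CD45-KO, myeloid markers were at 0.40 and NK cell markers at 1.503 without the 2% of cells with most UMIs, and myeloid markers at 0.28 without cells holding a UMI of other-type markers.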
